A study of Homo sapiens with 12 samples.

Results

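The 41 genes described here encode proteins of the cytosolic ribosome, 26 of the large subunit and 15 of the small subunit. They were chosen by symbol, and all 41 were found in both deposited count tables, among 17099 gene rows for OCI-AML2 and 16820 for MOLM-13. OCI-AML2 and MOLM-13 are established human cell lines grown from acute myeloid leukaemia. Treatment lasted 36 h and used selinexor, an inhibitor of the export receptor XPO1, or its vehicle DMSO. The dose was 200 nM in OCI-AML2 and 75 nM in MOLM-13, and line and dose therefore cannot be told apart. There were 3 libraries in each of 4 groups, biologically independent by the submitters' account, and each line is 1 culture model. Polyadenylated RNA of whole cells was sequenced without keeping the strand.

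The ribosome joins amino acids into proteins, and each of its proteins is needed in about equal amount. In human cells most of their messages begin with a cytosine followed by a run of pyrimidines, the 5′ terminal oligopyrimidine (TOP) motif, through which LARP1 and the mTOR pathway set how well they are translated and kept. New ribosomal proteins are carried into the nucleus by importins and their own chaperones, joined to ribosomal RNA there, and leave in subunits whose export uses XPO1 together with adaptors such as NMD3.

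Library totals ran from 8114892 to 11769061 counts, and 3 counts in a library equalled 0.255 to 0.370 CPM (a gene's count as a share of its library, scaled to a fixed total), which covers counting error only. Levels below are CPM scaled within each line by the trimmed mean of M-values (TMM), and a log2 fold change is selinexor over vehicle with its standard error. CPM are relative to the other messages of a library, so fewer cells of a type and less RNA per cell cannot be told apart. A gene was called when its adjusted p by edgeR's quasi-likelihood test was under 0.05, with Benjamini-Hochberg adjustment over all tested genes. Of the 8 listed myeloid markers, SPI1, CEBPA, FLT3 and LYZ were at 98.9 CPM or more in every library of both lines, and CD33 at 33.9 to 65.0 CPM. MPO was at 6.70 to 13.3 CPM in OCI-AML2 and 28.8 to 71.3 CPM in MOLM-13, CSF1R at 9.99 to 13.9 CPM in OCI-AML2, and CSF1R in MOLM-13 (0.847 to 1.83 CPM) and ITGAM in both lines (1.10 to 4.43 CPM) were about as low as markers of absent cell types. LYZ, the lysozyme gene of maturing myeloid cells, moved with the treatment. In OCI-AML2 it was at 1652 to 1840.4 CPM with vehicle against 9222 to 9526 CPM with selinexor. In MOLM-13 it was at 114 to 119.6 against 910.2 to 967 CPM. SPI1, CEBPA, FLT3 and ITGAM were also higher with selinexor in both lines, without overlap of the groups. In OCI-AML2, FLT3 had 98.9 to 101 against 193 to 206 CPM, in the same order. In MOLM-13, CEBPA had 604 to 619 against 1143 to 1188 CPM. MPO rose in MOLM-13 (28.8 to 33.2 against 65.7 to 71.3 CPM). In OCI-AML2 MPO fell (10.7 to 13.3 against 6.70 to 8.49 CPM). CD33 was higher in MOLM-13 alone, and CSF1R overlapped in both lines. The part of these changes in the results was not tested. The listed T cell, B cell, erythroid and fibroblast markers did not pass 2.34 CPM in any. KRT8, an epithelial keratin, was the exception among the other-cell markers, at 7.96 to 8.58 CPM with vehicle and 22.8 to 25.6 CPM with selinexor in MOLM-13, while EPCAM, the other epithelial marker, had no count; the part of KRT8 in the results was not tested. One library, OCI-AML2 vehicle library 2, stood apart for 6 members and is described with them. The transcript of the drug target, XPO1, rose in both lines (0.63 ± 0.040 and 0.66 ± 0.035 on the log2 scale).

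The letters at the start site are shown first for 8 members that the results turn on: 5 that moved less than the family and 3 that moved more. Each window is 15 bases before and 15 bases from the annotated start, 5′ to 3′ on the gene's strand, from RefSeq on GRCh38.p14. Capitals mark a cytosine at the start and the unbroken pyrimidines after it, where there were at least 5 such letters. Where a gene had several listed starts, the start with the longest such run was shown. Among the 8 this concerns RPL13, with 3 listed starts.
RPSA: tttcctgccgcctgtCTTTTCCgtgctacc
RPLP0: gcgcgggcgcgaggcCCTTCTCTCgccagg
RPL35: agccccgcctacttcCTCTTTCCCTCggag
RPS15: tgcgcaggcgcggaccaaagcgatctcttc
RPS9: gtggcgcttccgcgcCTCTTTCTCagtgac
RPL13: ttgcggggccgcttcCTTTCCgctcggctg
RPL12: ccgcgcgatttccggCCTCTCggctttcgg
RPS4X: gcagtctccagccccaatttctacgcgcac

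The windows lie at chr3:39406705-39406734 for RPSA, chr12:120201097-120201126 for RPLP0, chr9:124861943-124861972 for RPL35, chr19:1438381-1438410 for RPS15 and chr19:54200843-54200872 for RPS9. Those of the members called above the family lie at chr16:89560667-89560696 for RPL13, chr9:127451392-127451421 for RPL12 and chrX:72277234-72277263 for RPS4X. RPLP0, RPL35, RPL12 and RPS4X are on the minus strand and the other 4 on the plus strand. Of the 41 members, 33 were matched in the RefSeq table, and RPL5, RPL7, RPL8, RPL23, RPL30, RPL37, RPS2 and RPS20 were not. A run of at least 5 letters was searched on the gene's own strand at the start base, and a gene counted if any of its listed starts had it. It was found in 23 of the 33 (69.7%), against 739 of 9872 tested genes (7.49%). Among genes with mitochondrial ribosomal protein symbols it was found in 5 of 68 (7.35%). Members with and without the letters had medians close to each other: those with the run had a median log2 fold change of 0.42 in OCI-AML2 and 0.41 in MOLM-13, and the 10 without it 0.35 and 0.39. RPSA, RPLP0 and RPL35 carry runs of 7, 9 and 11 letters, whereas RPS15 and RPS4X, which lie below and above the family in both lines, have no such run at the listed start. Short motifs were searched on both strands in the 250 bases before any listed start. CCGGAAG was found in 24.2% of the members against 19.3% of tested genes, GGGCGG in 63.6% against 73.6%, and TATAAA in 12.1% against 7.73%.

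In OCI-AML2, ribosomal protein messages were higher with selinexor in nearly all members, most of them by similar amounts. Of the 41 members, 38 were called higher, where 31.3% of the 12086 tested genes were called higher. Either call was made for 63.1% of tested genes. Of the members 1, RPSA, was called lower, where 31.8% of tested genes were called lower, and RPLP0 and RPL35 were not called; the RPSA call did not hold under every alternative. The median log2 fold change of the members was 0.37, against -0.0016 over all tested genes, and the fold changes ran from 0.931 to 1.61 with a median of 1.30. In 39 members every selinexor library lay above every vehicle library, a pattern seen in 33.0% of tested genes, in RPSA every one lay below (33.3% of tested genes), and RPLP0 overlapped.

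The MOLM-13 members were also higher with selinexor, with a similar median. Here 38 members were called higher, where 31.8% of 11807 tested genes were, and none was called lower, where 31.8% of tested genes were called lower and 63.6% either way. The 3 members not called were RPL35, RPSA and RPS15. At an unadjusted p under 0.05 the count of lower members was also 0, and DESeq2 and limma voom called 0 members lower as well. The median log2 fold change was 0.41, against 0.0091 over all tested genes, and the fold changes ran from 0.992 to 1.54. All selinexor values were above all vehicle values in 38 members, as in 32.7% of tested genes, and below in none (32.8% of tested genes). In all, 37 members were called higher in both lines. The share of all tested genes called higher in both lines was not counted.

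**Figure D1:**
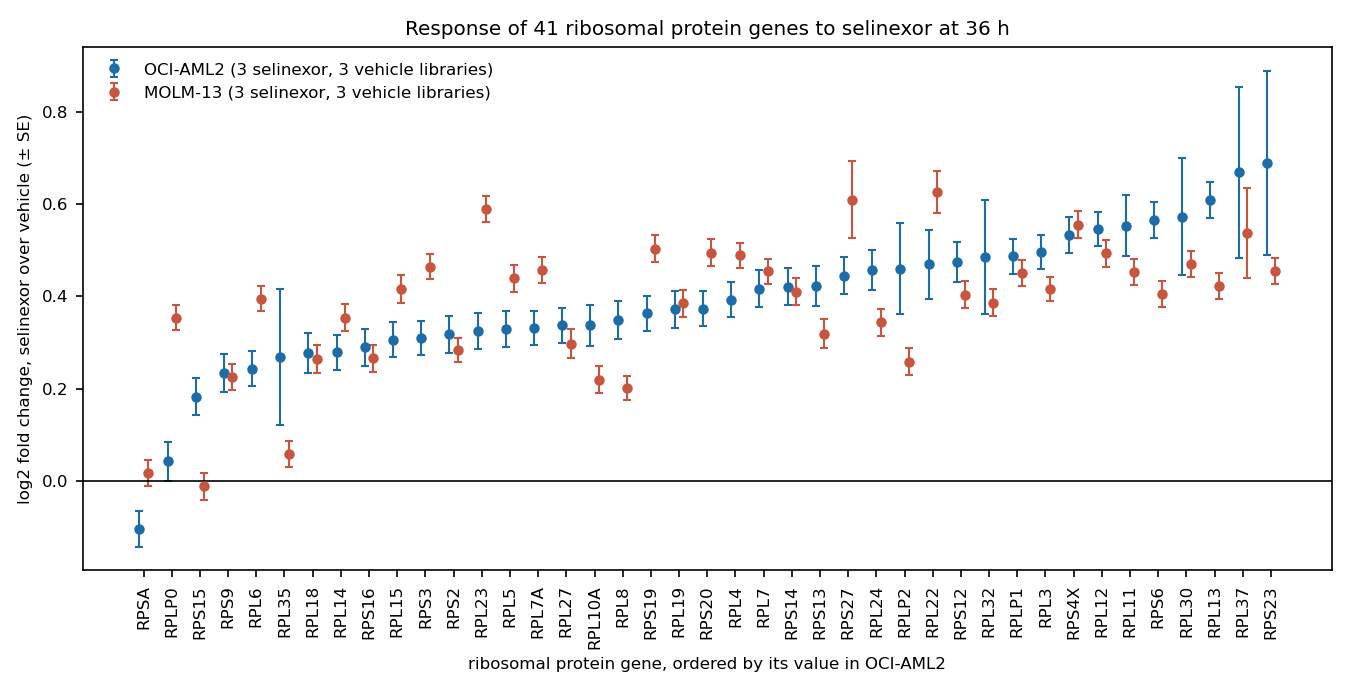
Log2 fold change (selinexor over vehicle, vertical axis, bars ± SE) of the 41 members in OCI-AML2 (blue) and MOLM-13 (red), ordered by the OCI-AML2 value. The medians are 0.37 and 0.41, and RPSA, RPLP0, RPS15 and RPL35 lie lowest in 1 line or both.

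Among the large-subunit members, RPL3, which lines the catalytic centre, was at 2486, 2517 and 2576 CPM with vehicle and 3575, 3513 and 3611 CPM with selinexor in OCI-AML2. Its groups were far apart relative to their spread, and the log2 fold change was 0.50 ± 0.037 (edgeR adjusted p = 1.1e-15). In MOLM-13 it went from 4551, 4597 and 4528 to 6176, 6035 and 6025 CPM, again without overlap, a log2 fold change of 0.42 ± 0.026. RPL5 and RPL11, which bind MDM2 when ribosome assembly is disturbed, changed by 0.33 ± 0.039 and 0.55 ± 0.067 in OCI-AML2 and by 0.44 ± 0.029 and 0.45 ± 0.028 in MOLM-13. RPL13, another large-subunit protein, had 1984, 2099.8 and 2148 CPM with vehicle and 3159.8, 3092 and 3255 CPM with selinexor in OCI-AML2. All of its selinexor libraries were higher, a log2 fold change of 0.61 ± 0.039 (edgeR adjusted p = 6.3e-18), and in MOLM-13 it rose by 0.42 ± 0.028. RPL23 rose by 0.33 ± 0.039 in OCI-AML2 and by 0.59 ± 0.029 in MOLM-13.

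Among the small-subunit members, RPS6, the protein phosphorylated by the S6 kinases, was at 1998, 1889.7 and 2021 CPM with vehicle and 2864, 2897 and 2982 CPM with selinexor in OCI-AML2, a log2 fold change of 0.57 ± 0.038. In MOLM-13 the levels were 3135, 3229 and 3325 and 4425, 4313 and 4095 CPM, a log2 fold change of 0.41 ± 0.028, and in neither line did the groups overlap. RPS14, the gene whose single copy underlies anaemia in a deletion form of myelodysplastic syndrome, rose by 0.42 ± 0.040 and 0.41 ± 0.029 in the same order. RPS19, the gene most often mutated in Diamond-Blackfan anaemia, rose by 0.36 ± 0.038 and 0.50 ± 0.029. RPS2 rose by 0.32 ± 0.039 and 0.28 ± 0.026, and RPS4X, encoded on the X chromosome, by 0.53 ± 0.039 and 0.56 ± 0.028. The median was 0.37 for the 15 small-subunit members and 0.38 for the 26 large-subunit members in OCI-AML2, and 0.41 and 0.42 in MOLM-13.

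To see which members left the family, each library was scaled by its median ratio over the 41 members, so that a log2 value of 0 means a change equal to that of the typical member. In this scaling 13.0% of all tested genes were called above the family and 59.1% below it in OCI-AML2 (72.1% either way), and 12.5% and 61.7% in MOLM-13 (74.2% either way). Of the members, 8 were called above and 6 below in OCI-AML2, and 10 above and 12 below in MOLM-13. The members above in OCI-AML2 alone were RPL3, RPL11, RPL13, RPLP1 and RPS6, and those below in that line alone were RPL6, RPL14 and RPLP0. In MOLM-13 alone RPL4, RPL22, RPL23, RPS3, RPS19, RPS20 and RPS27 were above, and RPL8, RPL10A, RPL18, RPL27, RPL35, RPLP2, RPS2, RPS13 and RPS16 below. A call in 1 line and not in the other does not show a difference between the lines. Over all members the departures ran from -0.49 to 0.31 in OCI-AML2 and from -0.42 to 0.22 in MOLM-13. In both lines 3 members were called above (RPL12, RPL30, RPS4X) and 3 below (RPSA, RPS15, RPS9), and 11 were called in neither. No member was called above in one line and below in the other. The shares of all tested genes with these patterns over both lines were not counted.

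RPSA departed furthest in OCI-AML2. It encodes a small-subunit protein, also known as the laminin receptor, and lies at chr3:39406689-39412542, plus strand (GENCODE 29, GRCh38). Its OCI-AML2 levels were 1937, 1882 and 2016 CPM with vehicle and 1813, 1770.3 and 1848 CPM with selinexor. Every selinexor library was the lower, by a narrow margin, and the log2 fold change was -0.10 ± 0.038 (edgeR adjusted p = 0.017). This call was lost with upper quartile scaling (-0.049, edgeR adjusted p = 0.26), in the joint fit of 12 libraries (-0.061), and without OCI-AML2 vehicle library 3 (-0.081), selinexor library 1 (-0.10) or selinexor library 2 (-0.086). In MOLM-13 RPSA stood at 2294, 2276 and 2275 CPM with vehicle and 2288, 2310.3 and 2335 CPM with selinexor. These groups overlapped, and the log2 fold change of 0.018 ± 0.028 was not called; with upper quartile scaling it was called higher (0.089). Relative to the family RPSA was at -0.49 ± 0.046 in OCI-AML2 and -0.39 ± 0.028 in MOLM-13 (edgeR adjusted p = 4.3e-18 and 2.4e-22), and the departure was called in each of the 8 alternatives run per line.

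RPS15, whose protein sits near the decoding centre in the head of the small subunit (chr19:1438358-1440494, plus strand), departed furthest in MOLM-13. There it had 1775, 1725 and 1774 CPM with vehicle and 1746, 1762 and 1725 CPM with selinexor. The groups overlapped fully and the log2 fold change was -0.011 ± 0.029, a departure of -0.42 ± 0.029 from the family (edgeR adjusted p = 2.4e-23). In OCI-AML2 it went from 900.4, 976 and 970.1 to 1061, 1054 and 1117 CPM. It rose there by 0.18 ± 0.040 without overlap, and its departure was -0.20 ± 0.049 (edgeR adjusted p = 1.6e-04). Both departures were called in each of the 8 alternatives run per line.

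RPLP0 encodes the base of the stalk, the arm on which translation factors land, and RPLP1 and RPLP2 encode the proteins that bind to it. In OCI-AML2 RPLP0 (chr12:120196686-120201235, minus strand) had 2188, 2391 and 2072 CPM with vehicle and 2322, 2201 and 2329.7 CPM with selinexor. Its groups overlapped, with a log2 fold change of 0.043 ± 0.042 (edgeR adjusted p = 0.39) and a departure of -0.34 ± 0.052 from the family. With upper quartile scaling (0.098), in the joint fit (0.086) and without OCI-AML2 vehicle library 2 (0.097) it was called higher. In MOLM-13 it went from 3889, 3731 and 3666 to 4701, 4795 and 4932 CPM, without overlap. That rise of 0.35 ± 0.027 was near the family median, with a departure of -0.051 ± 0.027 that was called below the family with voom and without MOLM-13 selinexor library 3 (-0.062). The other stalk proteins rose in both lines, RPLP1 by 0.49 ± 0.039 and 0.45 ± 0.027, and RPLP2 by 0.46 ± 0.098 and 0.26 ± 0.029.

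RPL35, a protein at the mouth of the exit tunnel (chr9:124857880-124861981, minus strand), was called in neither line. In MOLM-13 it had 1897, 1808 and 1822 CPM with vehicle and 1900.4, 1876 and 1982 CPM with selinexor. The groups overlapped, the log2 fold change was 0.059 ± 0.029 (edgeR adjusted p = 0.068), and the departure from the family was -0.35 ± 0.029 (edgeR adjusted p = 9.0e-19). It was called higher in MOLM-13 with upper quartile scaling (0.13), with voom (0.059) and without vehicle library 1 (0.076) or selinexor library 2 (0.074). In OCI-AML2 the levels were 1296, 1012 and 1429 CPM with vehicle and 1499.7, 1437 and 1565 CPM with selinexor, where the vehicle libraries were wide apart. The log2 fold change of 0.27 ± 0.15 was not called there; in the joint fit it was (0.31). Its departure in that line was -0.11 ± 0.098, not called, and -0.22 and called without vehicle library 2. RPS9, a small-subunit protein that helps keep decoding accurate, rose in both lines and less than the family, with departures of -0.15 ± 0.048 and -0.18 ± 0.029. The first was not called without OCI-AML2 selinexor library 3 (-0.11).

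**Figure D2:**
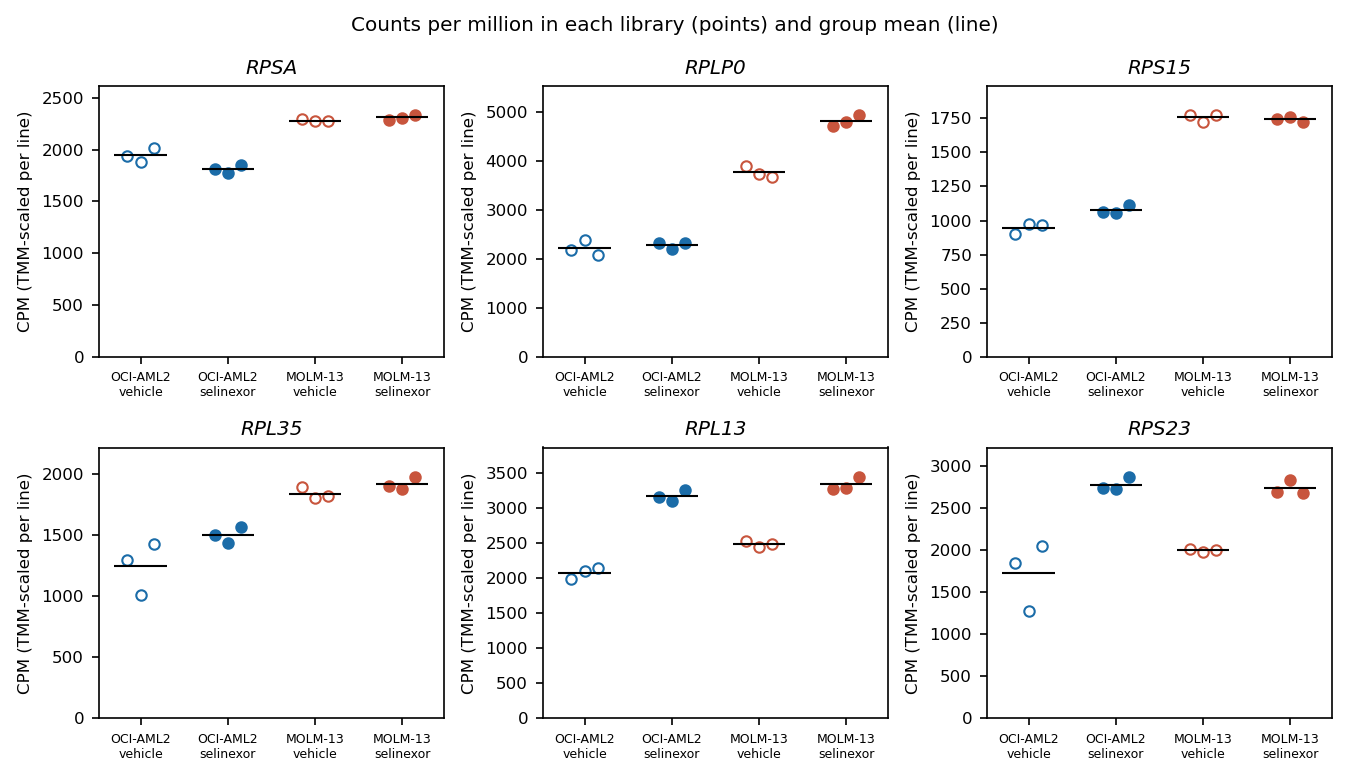
CPM (vertical axis, from 0) of 6 members in each of the 12 libraries (open points vehicle, filled points selinexor) with the group mean as a line. RPSA and RPS15 overlap between the MOLM-13 groups, RPL13 is separated in both lines, and 1 OCI-AML2 vehicle library is low for RPS23 and RPL35.

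At the upper end, the members with the largest departures called in OCI-AML2 were RPL13 at 0.23 ± 0.046, RPL30 at 0.19 ± 0.068 and RPS6 at 0.18 ± 0.046. In MOLM-13 they were RPL22, RPS27 and RPL23 at 0.22 ± 0.047, 0.20 ± 0.067 and 0.18 ± 0.030. RPS4X stood above the family by nearly the same value in both lines, 0.15 ± 0.048 and 0.15 ± 0.029 (edgeR adjusted p = 0.0034 and 3.0e-06). Its CPM were 1086, 1032 and 1121 with vehicle and 1568, 1525 and 1592 with selinexor in OCI-AML2. In MOLM-13 they were 1528, 1505 and 1508 and 2224, 2256 and 2193, so that the groups were apart in each line. The departure of RPS27 was not called with voom or without MOLM-13 selinexor library 3 (0.22). The departure of RPL30 was not called with voom or without vehicle library 3 or selinexor library 3 in OCI-AML2, nor without vehicle library 2 or 3 or selinexor library 1 or 2 in MOLM-13. RPL12 departed by 0.16 ± 0.047 and 0.088 ± 0.029. Across the 41 genes the log2 fold changes of the lines had a Pearson r of 0.59, and of 0.42 over the 37 genes without RPSA, RPS15, RPLP0 and RPL35; genes are not independent replicates, and no test was made.

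**Figure D3:**
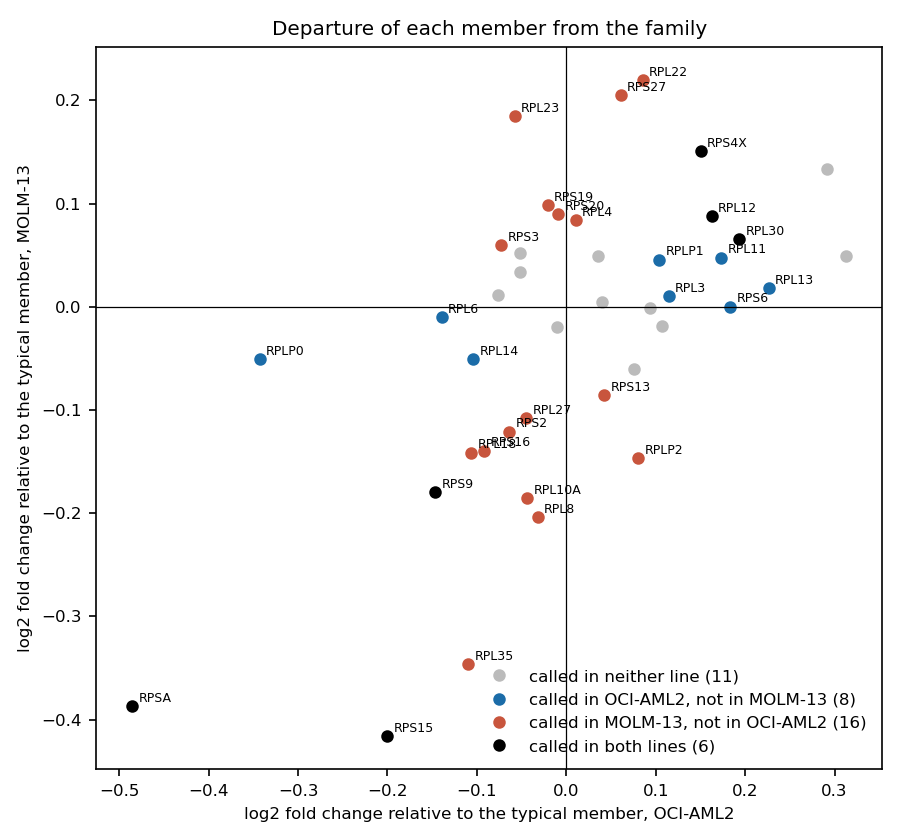
Log2 fold change of each member relative to the typical member in OCI-AML2 (horizontal axis) and MOLM-13 (vertical axis), coloured by the lines in which the departure was called. RPSA and RPS15 lie low in both lines, RPLP0 low in OCI-AML2 and RPL35 low in MOLM-13, and RPS4X lies above the family in both.

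The largest fold changes in OCI-AML2, those of RPS23 and RPL37, rest partly on 1 library. RPS23, a protein of the decoding centre, had 1847, 1276 and 2051 CPM with vehicle and 2737, 2729 and 2876 CPM with selinexor, and vehicle library 2 was the low one. Its log2 fold change was 0.69 ± 0.20 (edgeR adjusted p = 0.038), and 0.51 without that library. RPL37 was 0.67 ± 0.18, and 0.50 without it. RPL30 was 0.57 ± 0.13, and 0.45 without it. RPL35 was at 0.27, and at 0.13 and called higher without it. In that library 6 of 41 members (RPS23, RPL37, RPL35, RPL30, RPL32, RPLP2) lay under 0.85 of the mean of the other 2 vehicle libraries, against 58 of 2292 genes (2.53%) with at least 100 CPM, limits that were chosen after the values were seen. These 6 also had the largest standard errors in OCI-AML2. The calls for RPS23 and RPL37 were lost without vehicle library 1 (edgeR adjusted p = 0.087 and 0.073), and likewise with any 1 selinexor library left out. The call for RPL30 was lost without selinexor library 2 or 3, and that for RPLP2 without vehicle library 1.

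Whether the 2 lines differed in their response was tested as an interaction term in the fit of all 12 libraries. By this test 8 members changed more in OCI-AML2, where 19.0% of 12530 genes did, and 2 changed more in MOLM-13, where 11.1% did (30.1% either way), so the members' shares were near or under those of all genes. In this fit the median difference over all genes was 0.040, and over the alternatives it ran from -0.052 to 0.045, so the values below hold an offset of that size. RPLP0 changed more in MOLM-13, by -0.26 ± 0.053 (OCI-AML2 minus MOLM-13, log2, edgeR adjusted p = 6.8e-05), and so did RPL23, by -0.22 ± 0.051 (adjusted p = 4.6e-04). RPS15 changed more in OCI-AML2, by 0.24 ± 0.051, RPL13 by 0.23 ± 0.049, RPS6 by 0.21 ± 0.049 and RPL8 by 0.20 ± 0.051. The remaining 4 (RPL10A, RPL24, RPS13, RPL3) ranged from 0.13 to 0.17. RPSA, called in OCI-AML2 and not in MOLM-13, had no called difference between the lines (-0.073 ± 0.049, edgeR adjusted p = 0.27). These counts moved with the scaling of the libraries: with the libraries scaled to the family, an alternative chosen after seeing the data, 5 members changed more in OCI-AML2 (RPS15, RPL13, RPLP2, RPS6, RPL8) and 4 in MOLM-13 (RPLP0, RPL23, RPS3, RPL6). There the median over all genes was -0.0078, and the values were 0.19 for RPS15, 0.19 for RPL13, 0.16 for RPS6, 0.15 for RPL8, -0.31 for RPLP0 and -0.26 for RPL23. RPLP0 and RPL23 were called in each of the other 16 alternatives, RPS15 and RPL13 in 15, RPS6 and RPL8 in 13, and RPS13 in 1. The counts also depended on single libraries: they were 0 and 13 without OCI-AML2 vehicle library 1, 2 and 12 without OCI-AML2 vehicle library 2, 7 and 10 without OCI-AML2 vehicle library 3, 2 and 10 without MOLM-13 vehicle library 2, and 5 and 2 without OCI-AML2 selinexor library 3.

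With vehicle alone, ribosomal protein messages were lower in OCI-AML2 than in MOLM-13. On CPM scaled over the 12 libraries, 38 members were called lower in OCI-AML2, where 35.0% of genes were, and none higher, where 36.2% were (71.2% either way). None was higher in OCI-AML2 at an unadjusted p under 0.05 either, since every member's difference was below 0, and edgeR with DESeq2 size factors or upper quartile scaling called 0 higher as well. RPS23, RPLP2 and RPS19 were not called. The median difference was -0.41 (log2, OCI-AML2 minus MOLM-13). RPS27, a zinc-finger protein of the small subunit, had 1069.8, 1004 and 976 CPM in OCI-AML2 and 2187, 1826 and 2049 CPM in MOLM-13, a difference of -0.99 ± 0.063. RPS2 had 3003, 3143 and 3345 and 6090.1, 6087 and 5907 CPM, a difference of -0.93 ± 0.035, and for both genes the lines did not overlap. Line and any difference in preparation cannot be told apart here.

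Per kilobase of coding sequence 1 member, RPL22, lay far under the others. In OCI-AML2 with vehicle the 40 other members ran from 1369 (RPS4X) to 5836 CPM per coding kilobase (RPLP1), and RPL22 stood at 106. In MOLM-13 they ran from 1808 (RPL18) to 8175 (RPL37), and RPL22 stood at 356. RPL22 is also the member with the largest difference between the lines.

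RPL22, a large-subunit protein that cells can live without and whose gene is lost in some leukaemias (chr1:6185020-6209389, minus strand), had 38.1, 42.6 and 39.2 CPM in OCI-AML2 and 141, 131 and 141 CPM in MOLM-13 with vehicle, a difference of -1.78 ± 0.061 (log2, edgeR adjusted p = 1.4e-41). Its paralog RPL22L1 (chr3:170864875-170870483, minus strand) had the opposite order, with 212, 226 and 219 CPM in OCI-AML2 and 73.6, 90.2 and 87.0 CPM in MOLM-13, a difference of 1.39 ± 0.052. Neither gene overlapped between the lines. The selinexor libraries held 51.3, 58.3 and 61.6 CPM of RPL22 in OCI-AML2 and 196, 219.7 and 219 in MOLM-13, so that it rose by 0.47 ± 0.074 and 0.63 ± 0.046. RPL22L1 rose by 0.18 ± 0.043 in OCI-AML2 and was not called in MOLM-13 (-0.050 ± 0.061). The count of RPL22L1 for each count of RPL22 in OCI-AML2 was 5.29 to 5.58 (vehicle) and 4.29 to 4.69 (selinexor). In MOLM-13 it was 0.521 to 0.687 and 0.352 to 0.426. RPL22 is the only member that shares exonic bases (230 of 2432) with another protein-coding gene on its own strand in GENCODE 29. The libraries did not keep the strand, and on either strand 8 members share exonic bases with an annotated gene. RPL30 (39.3%, antisense) and RPL18 (17.2%, SPHK2) share more with an opposite-strand gene than RPL22 does (9.46%). They stood at 1378 and 873 CPM with vehicle in OCI-AML2. Of 79 cytosolic ribosomal protein genes, 8 share bases with a protein-coding gene on their own strand. The 7 genes under 200.0 CPM with vehicle in both lines are all among them. This was looked at after the levels were seen. The other one, RPL36, was at 592 and 1059 CPM. How the authors' counting treated reads of shared exons is not given in the sources used here, so the level of RPL22 is uncertain, while its fold change and the difference between the lines compare the same row.

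**Figure D4:**
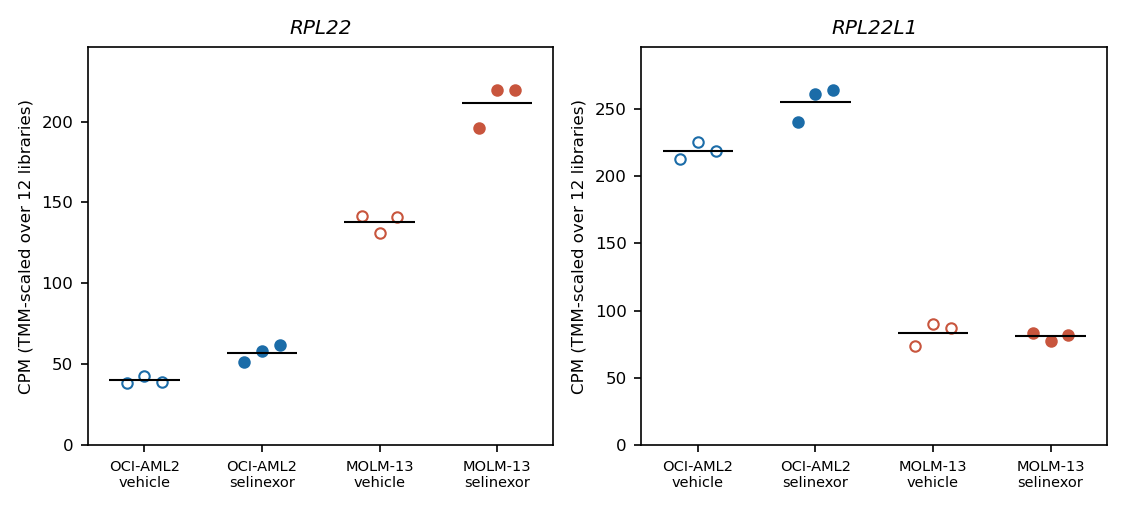
CPM scaled over the 12 libraries (vertical axis, from 0) of RPL22 and its paralog RPL22L1 in each library (open points vehicle, filled points selinexor), with the group mean as a line. RPL22 is higher in MOLM-13 and RPL22L1 higher in OCI-AML2, and RPL22 is higher with selinexor in both lines.

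Together the 41 members held 6.40%, 6.19% and 6.66% of all counts in the OCI-AML2 vehicle libraries. After selinexor the shares of that line were 8.06%, 7.99% and 8.26%. In MOLM-13 the shares were 9.04%, 8.90% and 8.93% with vehicle and 11.3%, 11.4% and 11.4% with selinexor. The groups did not overlap in either line, and the difference of the means was 1.69 and 2.42 percentage points. The 38 cytosolic ribosomal protein genes outside the 41 went from 3.62% ± 0.170 to 4.79% ± 0.106 of counts in OCI-AML2 and from 4.91% ± 0.0906 to 6.46% ± 0.0976 in MOLM-13 (SD, n = 3). The genes with mitochondrial ribosomal protein symbols, the antisense transcript MRPL20-AS1 among them, went the other way. Their shares went from 0.600% ± 0.00658 to 0.492% ± 0.00582 and from 0.650% ± 0.00198 to 0.518% ± 0.00304. These shares are descriptions, and no test was made of them.

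**Figure D5:**
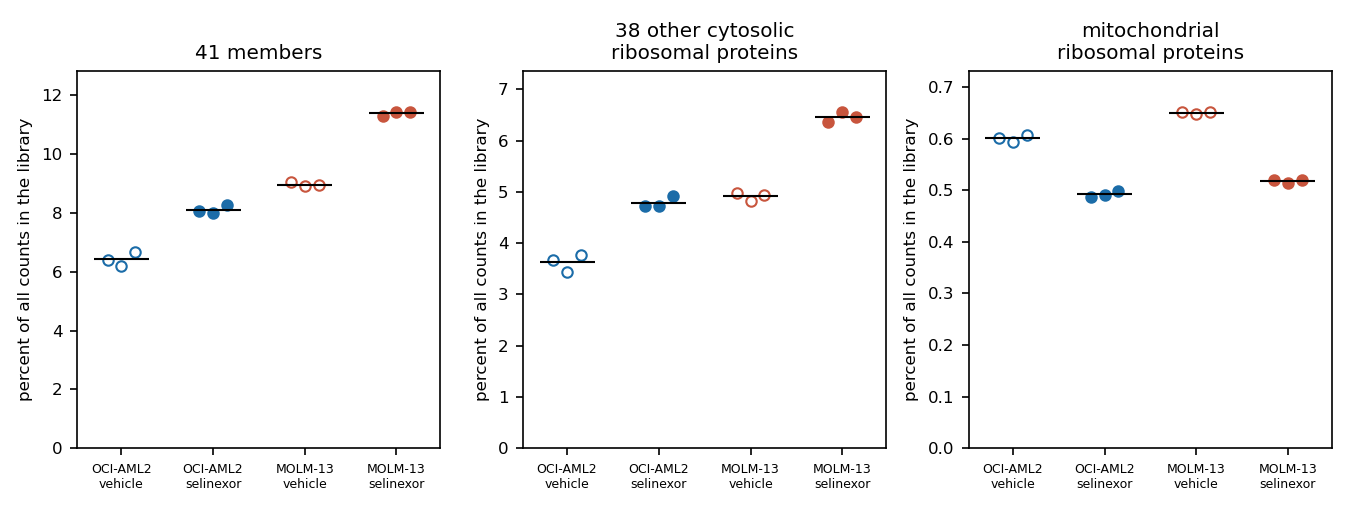
Percent of all counts (vertical axis, from 0) in each library, with the group mean as a line. The panels show the 41 members, 38 other cytosolic ribosomal protein genes, and every row with a mitochondrial ribosomal protein symbol. The cytosolic shares are higher with selinexor in both lines and the mitochondrial share is lower.

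Most of the other ribosomal protein genes rose as well. Of the 38 others, 26 were called higher and 2 lower in OCI-AML2 (median 0.43), and 30 higher and 1 lower in MOLM-13 (median 0.39). RPS18 rose by 0.67 ± 0.042 and 0.58 ± 0.026, RPL31 by 0.54 ± 0.040 and 0.52 ± 0.029, and RPS3A by 0.52 ± 0.039 and 0.61 ± 0.029. RPS26, named after its values were seen, was called lower in both lines, by -0.12 ± 0.040 and -0.54 ± 0.037, and its chaperone TSR2 changed by -0.66 ± 0.084 and -0.54 ± 0.090. The other lower gene in OCI-AML2 was RPS10, at 2.09 CPM with vehicle, one of the genes with shared exons. Of the 6 paralogs tested, RPS27L, a p53 target, rose by 0.68 ± 0.079 and 0.96 ± 0.048. RPL26L1 fell in both lines, by -0.52 ± 0.096 and -0.58 ± 0.091. RPL7L1 was -0.30 ± 0.040 and 0.011 ± 0.035, RPL36AL 0.12 ± 0.11 and -0.30 ± 0.041, and RPL39L -0.060 ± 0.11 and -1.15 ± 0.15, each called in 1 line.

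Genes that carry and guard new ribosomal proteins were mostly called lower. Of 13 chaperones and importers, 12 were called lower in each line and none higher (medians -0.61 and -0.45). Every one of the 13 had a log2 fold change below 0 in both lines, so none was higher at an unadjusted p under 0.05. IPO5, an importin for ribosomal proteins, changed by -0.79 ± 0.043 and -0.61 ± 0.036, and TNPO1, another import receptor, by -0.77 ± 0.045 and -0.78 ± 0.049. GRWD1, the chaperone of RPL3, changed by -0.88 ± 0.057 and -0.50 ± 0.049, where RPL3 itself rose. BCCIP, the chaperone of RPL23, changed by -0.51 ± 0.053 and -0.45 ± 0.046. Of 20 genes of subunit maturation and export, 13 were called lower and 3 higher in OCI-AML2, and 14 lower and 2 higher in MOLM-13 (medians -0.39 and -0.26). MRTO4, an assembly factor placed where RPLP0 later binds, changed by -0.82 ± 0.050 and -0.76 ± 0.049, and PNO1, a small-subunit assembly factor, by -1.03 ± 0.074 and -0.88 ± 0.073.

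Other messages known to carry the TOP motif mostly rose, with medians close to those of the ribosomal proteins. Of 18 translation factors and other such genes tested, 15 were called higher and 1 lower in OCI-AML2 and 16 and 2 in MOLM-13, with medians of 0.37 and 0.42. EEF1A1, the elongation factor that delivers tRNA, rose by 0.38 ± 0.037 and 0.54 ± 0.024, EEF2, the translocation factor, by 0.40 ± 0.038 and 0.58 ± 0.025, and TPT1 by 0.63 ± 0.038 and 0.58 ± 0.027. HNRNPA1, an RNA-binding protein of the nucleus, fell by 0.61 ± 0.037 and 0.36 ± 0.028. Of 15 regulators of TOP messages, 12 were called lower and 1 higher in OCI-AML2, and 9 lower and 2 higher in MOLM-13. LARP1, which binds the motif, changed by -0.38 ± 0.040 and -0.27 ± 0.034, EIF4EBP1, a translation repressor under mTOR, by -0.43 ± 0.047 and -0.86 ± 0.043, and PDCD4, an inhibitor of translation initiation, by 0.93 ± 0.045 and 0.98 ± 0.043. Of 77 genes with mitochondrial ribosomal protein symbols, 45 were called lower and 7 higher in OCI-AML2 and 55 and 5 in MOLM-13 (medians -0.25 and -0.33). MRPL4 was at -0.66 ± 0.048 and -0.51 ± 0.043. The 77 were taken by symbol and include MRPL20-AS1, by its symbol an antisense transcript and not a protein gene, which was not called in OCI-AML2. The background for these calls is that of all tested genes given above, 31.3% and 31.8% called higher and 31.8% called lower in each line.

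The authors' deposited table for MOLM-13 gives vehicle over selinexor, and with its sign turned 40 of the 41 members were above 0, with a median of 0.40. RPS15 was the member below 0 (-0.024 after turning) in the authors' deposited table, and RPSA and RPL35 were at 0.0055 and 0.046.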

How the data were processed

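Each of the 4 groups has 3 RNA-seq libraries. Counts are whole numbers by gene symbol, which the authors deposited in separate tables for the 2 lines; they were analysed as deposited. The submitters' processing notes name STAR, hg38, DESeq2 and R 3.6.1, and libraries were poly(A)-selected without strand, per the labels' protocols. Which tool and gene annotation made the counts is not given in the sources used here. A second file the authors deposited holds log2 fold changes for MOLM-13 (vehicle over selinexor), and the sign was checked here against the counts: it was opposite to selinexor over vehicle in 98.8% of tested genes. The line was read from the table's initial and the treatment from each column's letter. Libraries are numbered by column, as names alone.

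The tests and log2 fold changes come from edgeR 4.0.16 run under R 4.3.3. Genes were filtered with filterByExpr (minimum count 10 and minimum total count 15), and trimmed-mean scaling was then computed on the genes kept. Robust quasi-likelihood F tests followed, with Benjamini-Hochberg adjustment over all tested genes. All 41 members passed the filter in both lines. Each line was fitted alone; the difference between the lines and between the vehicle groups was fitted over 12 libraries on genes in both tables. Departures used the same test with libraries scaled to the members. Rows named as a member's pseudogene were present for RPL13, RPL23, RPL32 and RPS2 in both lines, RPLP0 in OCI-AML2 and RPSA in MOLM-13. They held at most 0.993% of the sum with their member. The other members had no such row, and near-identical copies can still share reads. Positions and coding lengths come from GENCODE 29 on GRCh38, start-site letters from RefSeq on GRCh38.p14.

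The members, lists and rule for named genes were chosen with earlier results of these data known. The rule names 11 members for their known biology, per line the 4 largest and 4 smallest fold changes, members opposite to the median, the 3 largest called departures, the 3 largest called differences between the lines and between the vehicle groups in each direction, and from the other lists the smallest p-values. Other members and genes named were chosen after their values were seen. For the other lists the rule was not followed in full. VIM had the smallest p of the TOP message list in OCI-AML2 (log2 fold change 0.97 ± 0.040) and was left out. MTOR (-0.69 ± 0.061), which had a smaller p than LARP1 and EIF4EBP1 in that line, was also left out. Alternatives were DESeq2 size factors, upper quartile scaling, DESeq2 1.42.0, limma voom (limma 3.58.1), no filter, a joint fit, pseudogene rows added, other denominators, and leaving out each library in turn. The procedure was also run on counts simulated with the means and dispersions of these data. In them RPSA and RPS15 were set to stay flat while the other members rose alike. That run checked the procedure only and is no evidence for the departures of these genes.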

Additional observations from a re-analysis of the deposited data

Results flagged for a closer look

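For 10 members the response to selinexor differed between the lines by the test of the difference itself, edgeR's interaction of line and treatment over 12 libraries, at an adjusted p under 0.05. Of all 12530 genes, 30.1% were called by this test, 19.0% with the larger change in OCI-AML2 and 11.1% in MOLM-13, so 10 of 41 (8 and 2) is near or under the background and is no result about the family. The values are log2, OCI-AML2 minus MOLM-13, in a fit whose median over all genes was 0.040. RPLP0 (-0.26) and RPL23 (-0.22) changed more in MOLM-13 and were called in each of 16 alternatives. RPS15 (0.24), RPL13 (0.23), RPS6 (0.21) and RPL8 (0.20) changed more in OCI-AML2 and were called in 15, 15, 13 and 13 of them. RPL10A (0.17), RPL24 (0.16), RPS13 (0.15) and RPL3 (0.13) also changed more in OCI-AML2 and were called in 9, 9, 1 and 8. Dose differed with the line, so a difference of dose and a difference of line cannot be told apart. Groups of 3 libraries are too small for a test of single outlying libraries.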

How the results depend on the processing

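Reversals were looked for in the summary values and in the 23 members named by the rule, and no called value of these reversed. The other members were not labelled in this way. Of these, RPL7 had a difference between the lines of 0.011 that was not called (edgeR adjusted p = 0.90). An alternative called it with the opposite sign, and its lowest value over the alternatives was -0.13. Among the summary values, 163 of the recomputed values stayed the same by the rule used (within 1.5 times for a count, within the spread between libraries for a share or median) and 25 moved. For the 23 named members, 1579 recomputed single-gene values kept their side of the threshold, 53 lost a call and 47 gained one. The count of members lower in OCI-AML2 (1) became 0 with upper quartile scaling and in the joint fit. Scaling by the upper quartile gave a MOLM-13 median of 0.48. Leaving out the 100 most abundant other genes gave a difference in share of 2.40 percentage points for OCI-AML2 and 3.48 for MOLM-13. The counts of members responding more in 1 line (8 for OCI-AML2, 2 for MOLM-13) became 4 and 5 with DESeq2 size factors in edgeR, 4 and 8 with upper quartile scaling, 5 and 6 with DESeq2, and 5 and 4 scaled by the members, and voom gave 4 for MOLM-13; the cause was not tested.

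Leaving out 1 library at a time gave 34 to 40 members higher and 0 to 1 lower in OCI-AML2, and 38 to 39 and 0 in MOLM-13. The medians ran from 0.35 to 0.41 and from 0.40 to 0.42, and the differences in share from 1.57 to 1.81 and from 2.40 to 2.48 percentage points. Members above the family numbered 6 to 11 and below it 4 to 8 in OCI-AML2, and 8 to 11 and 10 to 14 in MOLM-13. Members responding more in OCI-AML2 ran from 0 to 8 and in MOLM-13 from 2 to 13. Between the vehicle groups 37 to 40 members were lower in OCI-AML2 and 0 higher. No paired analysis was possible because the columns of the count tables carry no replicate numbers.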
